A study of Mus musculus with 8 samples.

Results

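The 8 genes *Vsx1*, *Grm6*, *Trpm1*, *Cabp5*, *Prkca*, *Otx2*, *Grik1* and *Pcp2*, all known as markers of retinal bipolar cells, were examined in chromatin accessibility lists from mouse retinal ganglion cells (RGCs). They are 8 of the 21900 protein-coding genes in the annotation used. Their regions were chosen by a peak call: every peak of the 8 deposited lists that overlapped 1 of the genes or the 10 kb on either side was taken, and peaks sharing at least 1 bp were merged into regions. This gave 176 of the 189914 merged regions of the series. Because a region entered only through a peak in at least 1 list, the presence of peaks is described here and not tested.

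Accessibility was measured by ATAC-Seq, in which a transposase inserts sequencing adapters into open DNA, in cells sorted from retinas of adult C57BL/6J mice. AAV2-GFP (the control, 3 samples), AAV2-Ezh2 (3 samples) or AAV2-Ezh2-Y726D (2 samples) was injected into the vitreous body. The optic nerve was crushed 2 weeks later in all 3 groups, and cells were sorted 3 days after the crush, with 50000 cells per library. Ezh2 is the catalytic subunit of Polycomb repressive complex 2, which methylates histone H3 at lysine 27, and Ezh2-Y726D is a form described by the study as catalytically dead. The study's sort was for cells carrying the surface protein Thy1, and the sources do not say whether replicates came from separate or pooled animals, so p-values measure the spread between these samples, which may be technical. No batch was given.

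Bipolar cells are the interneurons that carry signals from photoreceptors to RGCs. ON bipolar cells detect glutamate through the metabotropic receptor mGluR6, encoded by *Grm6*, which acts on the cation channel encoded by *Trpm1*, whereas OFF bipolar cells use ionotropic receptors such as the kainate receptor subunit encoded by *Grik1*. Otx2 and Vsx1 are homeodomain transcription factors of bipolar cells, *Prkca* encodes protein kinase C alpha (the usual rod bipolar marker, also expressed in many other tissues), Cabp5 is a calcium-binding protein, and Pcp2 binds G protein alpha subunits in ON bipolar cells. Bipolar cells lie in the inner nuclear layer and are not the cells named on the labels.

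The stretches just before the annotated starts of some of these genes are shown because peaks at the starts differed between the genes. By the deposited fold over background, every list had a peak above its own median at *Cabp5* and *Vsx1*, whereas the peaks at *Grm6* and at the first of 2 *Trpm1* starts were below it, and the *Otx2* start shown had a peak in 1 list. By the deposited −log10 p, the *Grm6* start and the first *Trpm1* start were each above the median in 5 of the 8 lists, so the contrast of these 2 with *Cabp5* and *Vsx1* holds for the fold only. RefSeq promoters were found for 7 of the 8 genes on GRCm38.p6, with 14 starts in all. Each sequence is 250 bases, read 5′ to 3′ on the gene's strand and ending at the base before the start. Capitals mark matches to TAATCC (the motif bound by OTX2 and CRX), TAATTA (a homeodomain core motif), CAGATG or CAGCTG (E-boxes bound by bHLH factors), searched on both strands, so that GGATTA is a match to TAATCC on the other strand.
Cabp5, chr7:13397905-13398154 (+): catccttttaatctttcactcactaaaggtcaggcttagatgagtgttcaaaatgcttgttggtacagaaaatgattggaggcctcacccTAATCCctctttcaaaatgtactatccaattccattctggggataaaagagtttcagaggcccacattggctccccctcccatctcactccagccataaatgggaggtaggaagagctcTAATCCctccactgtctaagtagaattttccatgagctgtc
Vsx1, chr2:150689138-150689387 (-): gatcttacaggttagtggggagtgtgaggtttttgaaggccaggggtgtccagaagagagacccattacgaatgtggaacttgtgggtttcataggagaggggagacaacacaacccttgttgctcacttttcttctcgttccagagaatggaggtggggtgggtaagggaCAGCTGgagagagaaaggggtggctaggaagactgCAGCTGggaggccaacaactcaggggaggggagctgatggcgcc
Grm6, chr11:50850435-50850684 (+): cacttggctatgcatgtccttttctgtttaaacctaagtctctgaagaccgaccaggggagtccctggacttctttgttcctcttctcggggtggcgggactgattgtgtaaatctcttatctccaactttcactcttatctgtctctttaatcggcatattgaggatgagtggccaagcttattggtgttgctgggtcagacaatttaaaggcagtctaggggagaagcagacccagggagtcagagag
Trpm1 first start, chr7:64153585-64153834 (+): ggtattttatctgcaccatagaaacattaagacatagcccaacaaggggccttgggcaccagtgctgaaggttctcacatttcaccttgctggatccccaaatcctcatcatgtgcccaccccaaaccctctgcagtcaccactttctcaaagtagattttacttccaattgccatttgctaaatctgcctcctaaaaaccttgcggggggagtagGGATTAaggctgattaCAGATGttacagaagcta
Otx2 second start, chr14:48665110-48665359 (-): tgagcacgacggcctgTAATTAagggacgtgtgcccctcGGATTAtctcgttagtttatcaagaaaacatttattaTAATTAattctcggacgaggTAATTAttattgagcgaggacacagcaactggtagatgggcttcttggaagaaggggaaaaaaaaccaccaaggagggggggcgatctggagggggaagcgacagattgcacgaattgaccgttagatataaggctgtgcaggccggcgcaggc
Among 32851 RefSeq promoters, 6.25% held TAATCC, 4.84% held TAATTA, 14.4% held CAGATG and 13% held CAGCTG in the same 250 bases. The *Cabp5* sequence holds 2 matches to TAATCC. The *Vsx1* sequence holds 2 matches to CAGCTG and the *Trpm1* sequence 1 each to TAATCC and CAGATG. The second *Otx2* start has 3 matches to TAATTA and 1 to TAATCC, and its only peak was that of GFP replicate 2. The sequences of *Grm6* and *Prkca* hold none of the 4 motifs. Each of these starts had a peak in at least 1 list, so they cannot show whether motif matches go with a peak. Among starts with no peak in any list, the most downstream *Otx2* start holds 1 match to CAGATG and the most downstream *Pcp2* start none. A match describes the letters and is no site.

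The 8 lists held from 112939 to 135895 peaks, with median widths from 470 to 508 bp. The lists hold no read numbers, so the depth is unknown and no counting interval can be given. Peaks are compared by their fold, which is the pileup at the summit over the local background as deposited. Because folds of different lists are not on 1 scale, each was turned into a percentile within its own list, where 100 is the strongest peak. All 20 genes of an RGC marker list had a peak in every list, but so did all 20 rod markers, all 20 amacrine markers and the 19 Müller glia markers that matched. In each GFP and Ezh2 list, all 20 T cell markers and all 20 microglia markers had a peak. Of each, 18 had one in both Ezh2-Y726D lists, with none at *Cd8a* and *Cd8b1* or at *Tmem119* and *Itgam*. A peak at a marker gene is therefore no sign of the cell type it came from, and fewer cells of a type and less accessible chromatin per cell cannot be told apart in these lists. By distance, the outermost region taken in lay 9748 bp from *Trpm1* with a peak in 6 lists (percentiles 20.8 to 69.0), and the nearest left out lay 10257 bp from it with a peak in 3 (12.7 to 60.8).

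All 8 bipolar genes had at least 1 peak in all 8 lists. Of their 176 regions, 60 had a peak in every list, 34.1% against 36.6% of all merged regions, and 27 had a peak in a single list. Long genes held most of them. *Prkca*, 410502 bp long, held 100 regions (56.8%), *Grik1* held 31, *Trpm1* 18, *Otx2* 9, *Grm6* 8, *Vsx1* 4, *Pcp2* 4 and *Cabp5* 2. Per 100 kb of window, *Otx2* had the most, at 29.2 regions, and *Cabp5* the fewest, at 4.66. In total the 8 windows held 115, 105 and 124 peaks in GFP replicates 1 to 3, 124, 128 and 123 with Ezh2, and 108 and 111 with Ezh2-Y726D. Regions at an annotated start of any gene numbered 12, of which 9 (75.0%) were in all lists, compared with 85.0% of the 14092 such regions of the series. Of the 145 regions inside the genes and away from starts, 45 (31.0%) were in all lists, near the 32.7% of all regions elsewhere.

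The strength of the strongest peak differed between the genes, with *Otx2* far below the others. Averaged over the 8 lists, the percentile of the strongest peak was 96.6 ± 1.63 at *Pcp2* (mean ± SD, n = 8), 90.2 ± 3.56 at *Grik1*, 88.0 ± 4.60 at *Grm6*, 85.2 ± 4.64 at *Cabp5*, 79.5 ± 3.97 at *Prkca*, 77.8 ± 7.12 at *Vsx1*, 70.7 ± 8.29 at *Trpm1* and 13.6 ± 7.71 at *Otx2*. Neighbours in this order from *Grik1* down to *Trpm1* differed by less than the sum of their SDs, whereas *Otx2* stood apart: its highest value of 26.8 was below the lowest value of 62.1 at *Trpm1*. Ranked by the deposited −log10 p instead of the fold, *Otx2* was still the lowest, at 49.3. The top places of *Pcp2* and *Grm6* belonged to neighbouring genes. Without regions at the start of another gene, a choice made after seeing the data, the mean for *Grm6* was 37.4 and *Pcp2* had no peak left in GFP replicate 1.

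**Figure D1:**
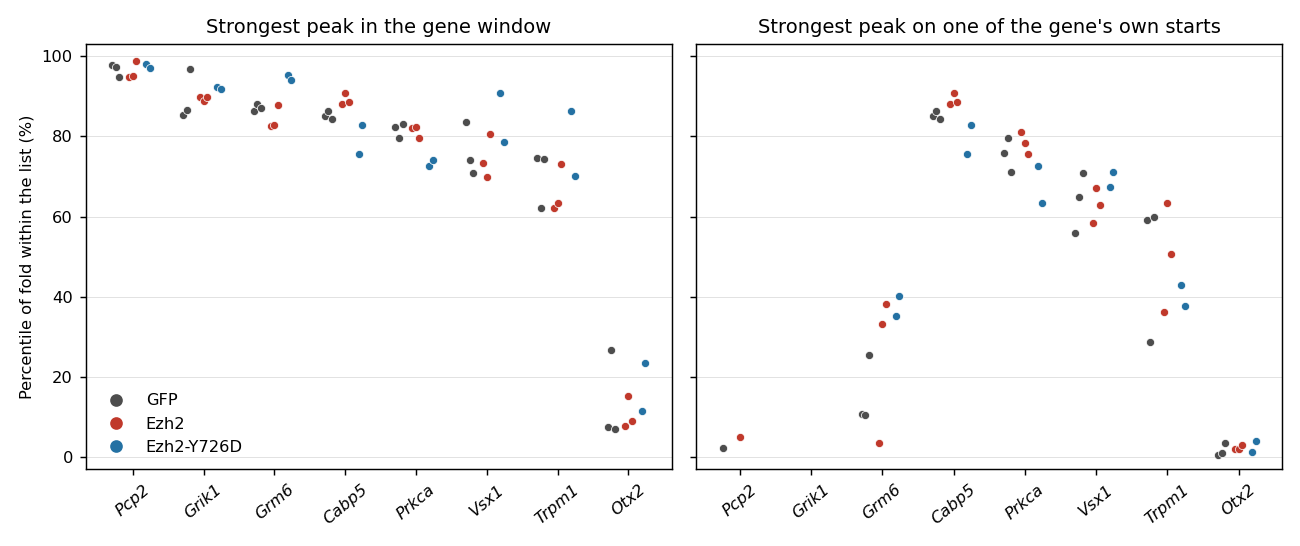
Each point is 1 list, coloured by group, and the y axis is the percentile of fold within that list for the strongest peak in the gene window (left) and for the strongest peak overlapping a start of the gene itself (right, empty for *Grik1*, which had no promoter entry). *Otx2* sits between 6.98 and 26.8 on the left, and *Pcp2* falls from above 94 on the left to 2 points under 5 on the right.

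Of the transcription factors, *Vsx1* had clear peaks. At *Vsx1* (chr2:150680702-150689137, minus strand), the region over the start (chr2:150688340-150689752) had percentiles of 55.9, 64.8 and 70.9 in GFP, 58.3, 67.0 and 62.9 in Ezh2, with 67.3 and 71.1 in Ezh2-Y726D. Both Ezh2-Y726D lists were above every Ezh2 list, and GFP overlapped each of the other groups. The difference was not called in any comparison (adjusted p from 0.534 to 0.870, by limma on the ranks as explained with the graded comparison). The strongest *Vsx1* region lay past the 3′ end, 14.0 kb from the start, at chr2:150674814-150675392, with 83.6, 74.2 and 68.5 in GFP, 73.4, 69.9 and 80.5 in Ezh2, with 90.9 and 78.6 in Ezh2-Y726D. At this region all groups overlapped. Next to it, chr2:150673744-150674507 had a peak in all GFP lists (37.1, 57.0 and 50.6) and all Ezh2 lists (68.1, 50.4 and 55.8) and in neither Ezh2-Y726D list.

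At *Otx2* (chr14:48656781-48667644, minus strand, 4 annotated starts), peaks were present in every list but were among the weakest by fold. The region over the 2 most upstream starts, chr14:48667428-48667793, had percentiles of 0.594, 0.996 and 3.51 in GFP, 2.07, 2.07 and 2.99 in Ezh2, with 1.36 and 4.18 in Ezh2-Y726D, with folds of 2.25 to 2.75. Ranked by −log10 p it stood in the middle of the lists, at 22.6 to 55.9. The strongest region, past the 3′ end at chr14:48654572-48655659, had 7.56, 26.8 and 6.98 in GFP, 7.75, 9.40 and 7.57 in Ezh2, with 11.5 and 23.6 in Ezh2-Y726D. No *Otx2* region had a peak in every list of 1 group and in no list of another, and none of the 5 tested was called. Ranked by −log10 p, chr14:48673648-48675524 was called lower in Ezh2-Y726D than in GFP (-0.94, limma adjusted p = 0.0390). The most downstream start had no peak in any list.

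Among the ON pathway genes, *Grm6* (chr11:50850369-50866208, plus strand) had a peak at its own start, chr11:50850257-50851632, that was weak by fold. Its percentiles were 10.9, 10.6 and 25.6 in GFP, 3.56, 33.3 and 38.1 in Ezh2, with 35.1 and 40.2 in Ezh2-Y726D. Both Ezh2-Y726D lists were above the 3 GFP lists, but the difference did not pass the test (adjusted p = 0.239). By −log10 p the same region ranked higher, at 35.1 to 73.2. The strong peak of the window, chr11:50840995-50841901, 8.92 kb before *Grm6*, overlapped the start of *Zfp879*. It had 86.2, 88.0 and 87.0 in GFP, 82.6, 82.8 and 87.8 in Ezh2, with 95.3 and 93.9 in Ezh2-Y726D.

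*Trpm1* (chr7:64153835-64269772, plus strand) has 2 annotated starts. The first, chr7:64153533-64154102, had percentiles of 22.6, 24.8 and 16.0 in GFP, 23.5, 34.0 and 8.66 in Ezh2 and 2.53 in Ezh2-Y726D replicate 2, with no peak in replicate 1. The second, chr7:64184911-64185868, had 59.2, 28.7 and 59.9 in GFP, 36.3, 63.3 and 50.6 in Ezh2, with 43.0 and 37.8 in Ezh2-Y726D. The groups overlapped at the second start, and no difference was called (adjusted p from 0.555 to 0.991). Of the regions with a peak in all lists, chr7:64155396-64156499, 2.11 kb into the gene, had the highest mean percentile. Its values were 54.2 to 68.1 in GFP, 57.0 to 62.5 in Ezh2 and 62.8 to 86.4 in Ezh2-Y726D. Both Ezh2-Y726D lists were above every Ezh2 list, and GFP overlapped each of the other groups. No difference was called there (limma adjusted p from 0.26 to 0.98).

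*Pcp2* (chr8:3623369-3625547, minus strand, 4 annotated starts) had a peak over its own starts in GFP replicate 2 and Ezh2 replicate 2 only, at percentiles of 2.42 and 4.99. Its window was filled by peaks at the starts of neighbours. The region at the starts of *Xab2* and *Pet100*, chr8:3621123-3621908, had 95.8, 96.3 and 94.0 in GFP, 94.7, 94.6 and 96.4 in Ezh2, with 97.9 and 97.0 in Ezh2-Y726D. The region at the start of *Stxbp2*, chr8:3630554-3631800, had 97.8, 97.2 and 94.7, then 94.6, 94.9 and 98.8, then 78.0 and 93.6 in the same order. Both Ezh2-Y726D lists were the lowest there, without passing the test by fold (adjusted p = 0.124 against GFP). Ranked by −log10 p, Ezh2 was called higher than Ezh2-Y726D (0.89, limma adjusted p = 0.048).

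*Cabp5* (chr7:13385960-13408887, plus strand) had 2 regions, each with a peak in all lists. The region over its start, chr7:13397608-13398839, 12.3 kb inside the annotated gene, was by fold the strongest own start of the 7 genes with a promoter entry, at 85.0, 86.3 and 84.2 in GFP, 88.0, 90.8 and 88.6 in Ezh2, with 75.6 and 82.7 in Ezh2-Y726D. By −log10 p it ranked at 68.9 to 86.3, below the *Prkca* start at 91.0 to 94.9. The region at the 3′ end of *Cabp5*, chr7:13407918-13408911, had fold percentiles of 79.4, 76.4 and 77.1, then 78.9, 86.1 and 84.2, then 70.3 and 67.6. At both, the 2 Ezh2-Y726D lists were the lowest of all. The differences of Ezh2 from Ezh2-Y726D missed the threshold (adjusted p = 0.0838 and 0.0508 by limma) and passed it when lists were ranked by −log10 p (0.0210 and 0.0136), as did those of Ezh2-Y726D from GFP (0.0357 and 0.0284).

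For the remaining 2 genes, no difference at the gene ends passed the test. The region over the *Prkca* start (chr11:108342700-108344500; the gene spans chr11:107933387-108343888, minus strand) had percentiles of 75.8, 79.6 and 71.0 in GFP, 81.1, 78.4 and 75.5 in Ezh2, with 72.6 and 63.3 in Ezh2-Y726D. *Grik1* spans chr16:87895901-88290863, and the region at its higher-numbered end, chr16:88289156-88290724, had 65.6, 70.4 and 71.3 in GFP, 79.9, 73.9 and 73.6 in Ezh2, with 63.7 and 63.8 in Ezh2-Y726D. At the latter, Ezh2 lists were above all others and both Ezh2-Y726D lists below all others. At the *Prkca* start, both Ezh2-Y726D lists were below every Ezh2 list, and 1 of them lay within the range of GFP. Neither region was called (limma adjusted p from 0.124 to 0.847).

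To ask whether Ezh2 or Ezh2-Y726D changed how many peaks each gene held, peak numbers were compared gene by gene, 24 comparisons in all. Called were genes whose groups did not overlap. Between Ezh2 and GFP, only *Prkca* was called (1 of 8 genes, against 10.6% of the 18690 genes with a peak). It had 58, 53 and 66 peaks in GFP (59.0 ± 6.56, SD, n = 3) and 69, 70 and 70 in Ezh2 (69.7 ± 0.577, n = 3), a difference of 10.7 peaks (two-sided exact permutation p = 0.1, the smallest that 3 against 3 samples allow). With lists of equal length the difference was 1.33 peaks, and with peaks of −log10 q of at least 5 it was 6.33, and in both the groups overlapped. Across all genes, 8.11% were called with more peaks in Ezh2 and 2.48% with fewer.

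Between Ezh2-Y726D and GFP, *Trpm1* alone was called, again 1 of 8 genes, against 20.4% of all genes (8.43% with more and 12% with fewer peaks in Ezh2-Y726D). It had 14, 14 and 16 peaks in GFP (14.7 ± 1.15, SD, n = 3) and 11 and 11 in Ezh2-Y726D, 3.67 fewer (two-sided exact permutation p = 0.2, the smallest that 2 against 3 samples allow). With peaks of −log10 q of at least 5 the difference was 2.50 and the groups overlapped. *Prkca* had 62 and 60 peaks in Ezh2-Y726D, within the range of GFP. With lists of equal length its difference from GFP turned from 2.00 more to 4.33 fewer.

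Between Ezh2 and Ezh2-Y726D, 2 of 8 genes were called against 29.0% of all genes. *Trpm1* had 14 peaks in each Ezh2 list, 3.00 more than in Ezh2-Y726D, and *Prkca* had 8.67 more (both two-sided exact permutation p = 0.2). Over all genes, 20.9% had more peaks in Ezh2 and 8.11% fewer. T cell markers also had their highest numbers in Ezh2, with 165 to 173 peaks in Ezh2, 115 to 150 in GFP and 80 in both Ezh2-Y726D lists. Microglia markers had 98 to 104, 82 to 97 and 49. Amacrine, RGC, rod and Müller glia markers did not have their highest numbers in Ezh2. Amacrine markers had 154 to 181, 171 to 198, and 195 and 209 in the same order of groups. RGC markers had 152 to 164, 135 to 159, and 158 and 171. Rod markers had 112 to 121, 123 to 129, and 107 and 120. Müller glia markers had 112 to 118, 105 to 127, and 115 and 125. The part of any of these cell types in the *Prkca* and *Trpm1* numbers was not tested.

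The other 6 genes overlapped between groups in every comparison. *Grik1* had 22, 18 and 21 peaks in GFP, 19, 22 and 21 in Ezh2 but 19 in each Ezh2-Y726D list. *Otx2* had from 6 to 8 peaks in any list, *Grm6* from 3 to 6, *Vsx1* from 2 to 4, *Pcp2* from 2 to 4 and *Cabp5* 2 or 3. With so few peaks per list, a change of 1 peak is a large share of these numbers.

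**Figure D2:**
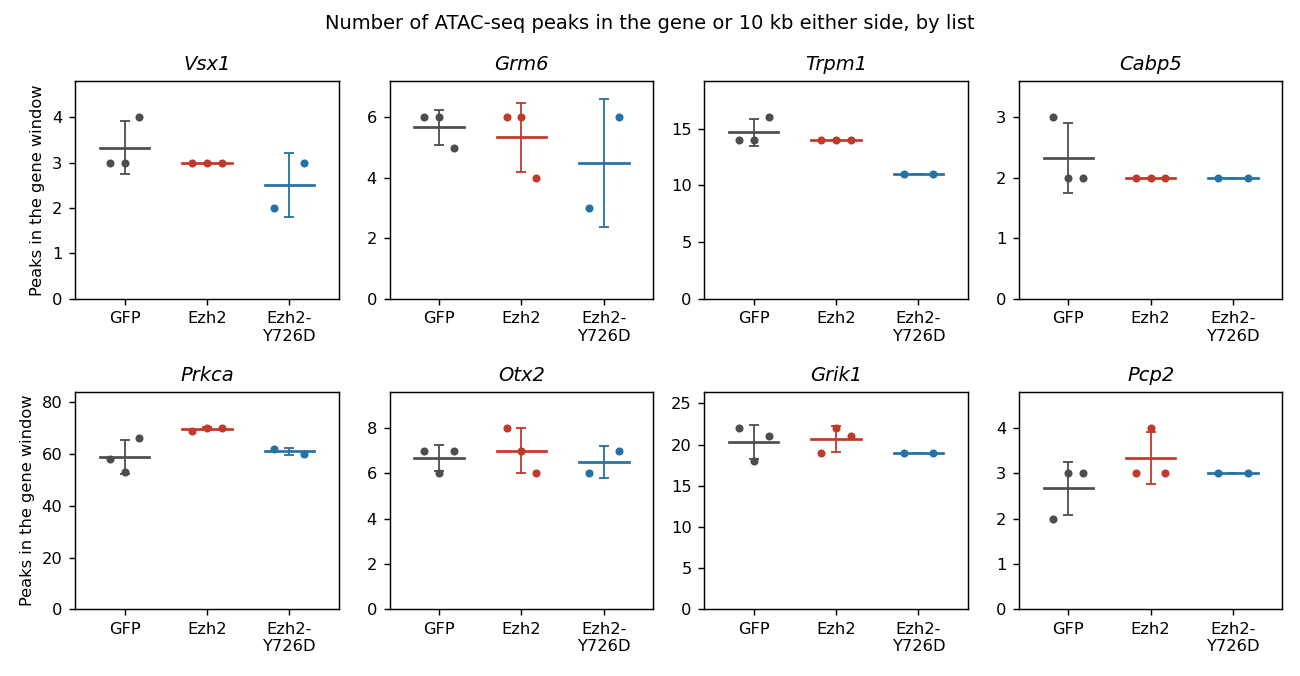
Each point is the number of peaks of 1 list in the gene or the 10 kb on either side, by group, with the mean (horizontal line) and SD (bars), and each panel has its own y axis from 0. *Prkca* is highest in the 3 Ezh2 lists (69 to 70), and *Trpm1* is lowest in the 2 Ezh2-Y726D lists (11).

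Presence of single regions was described next. A region was called gained when every list of the group named first held it and no list of the other did, and lost in the reverse case. Between Ezh2 and GFP, 5 of the 176 regions were gained, 2.84% against 2.72% of all regions, and 3 were lost, 1.70% against 1.68%. In Ezh2-Y726D against GFP, 7 were gained (3.98% against 4.77%) and 10 lost (5.68% against 4.72%). Between Ezh2 and Ezh2-Y726D, 20 were gained (11.4% against 8.96%) and 4 lost (2.27% against 6.14%). In the comparison of Ezh2 with GFP the balance depended on the lists, with 3 gained and 8 lost at equal length and 10 gained and 1 lost with a minimum cover of 0.5 of the region by the peak. That of Ezh2-Y726D against GFP did too, with 3 gained and 13 lost at equal length and 18 gained and 13 lost without Ezh2-Y726D replicate 1.

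In all, 34 regions were gained or lost in some comparison, and 21 of them lay in *Prkca*, 8 in *Grik1*, 4 in *Trpm1* and 1 at *Vsx1*. None lay at *Grm6*, *Cabp5*, *Otx2* or *Pcp2*, and none overlapped an annotated start. The strongest of them was in *Grik1*, chr16:88250848-88251608. It had percentiles of 70.1, 80.9 and 86.6 in GFP and 89.8, 88.8 and 70.4 in Ezh2, and no peak in either Ezh2-Y726D list, although both had a weak peak in the neighbouring region chr16:88249383-88249982 (22.9 and 32.4).

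Other *Grik1* regions were weaker. The region chr16:88046649-88047033 had a peak in the 3 Ezh2 lists alone (39.2, 47.2 and 17.5). The region chr16:87943962-87944534 had peaks in 2 GFP lists (46.7 and 39.4), all Ezh2 lists (67.1, 55.5 and 69.8) and no Ezh2-Y726D list, and chr16:87922037-87922489 had 29.0, 57.8 and 14.2 in GFP, 31.4, 17.1 and 4.91 in Ezh2 and none in Ezh2-Y726D. The lower-numbered part of *Grik1*, where the latter 2 lie, also overlaps other annotated transcripts (4930590A17Rik and LOC115486002).

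In *Trpm1*, 4 regions differed, in both directions. The region chr7:64231959-64232622, 78.5 kb into the gene, had 24.9, 7.75 and 31.5 in GFP and 45.7 and 17.9 in Ezh2-Y726D, and no peak in any Ezh2 list. Past the 3′ end, chr7:64279520-64279921 had 24.2, 44.4 and 20.8 in GFP, 59.8, 22.5 and 69.0 in Ezh2 and none in Ezh2-Y726D. The region chr7:64226745-64227364 had 5.85, 5.77 and 25.5 in GFP, 22.6 and 21.4 in 2 Ezh2 lists and none in Ezh2-Y726D. In contrast, chr7:64242341-64242792 had none in GFP, 28.9 and 9.86 in 2 Ezh2 lists, and 56.3 and 40.2 in Ezh2-Y726D.

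In *Prkca*, 14 of 100 regions had a peak in all Ezh2 lists and in no Ezh2-Y726D list, and 2 had the reverse. The strongest was chr11:108068325-108068941, with 71.5, 66.1 and 79.6 in Ezh2, 33.0 and 20.9 in 2 GFP lists and none in Ezh2-Y726D. The region chr11:108178332-108179371 had 55.6, 66.8 and 65.4 in Ezh2 and 39.1 and 14.2 in 2 GFP lists. At chr11:108171689-108172239 there were 29.4, 63.0 and 49.5 in Ezh2 and 15.5 in 1 GFP list. At chr11:108087804-108088523 there were 51.9, 22.7 and 52.4 in Ezh2 and 10.0 and 11.3 in 2 GFP lists. In all 4, each Ezh2 percentile was above each GFP percentile present. In the same comparison 32.7% of 220 regions at T cell markers were gained and 2.27% lost, and 33.9% and 4.35% of 115 at microglia markers. Over all regions these shares were 8.96% and 6.14%. Lists of other bipolar genes had 3.42% to 10.9% gained and 2.74% to 8.41% lost. Rod markers had 4.46% and 0.637%, and RGC markers 5.38% and 8.07%. Müller glia markers had 3.27% and 5.23%, and amacrine markers 1.09% and 6.57%. The part of any of these cell types in the *Prkca* regions was not tested.

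**Figure D3:**
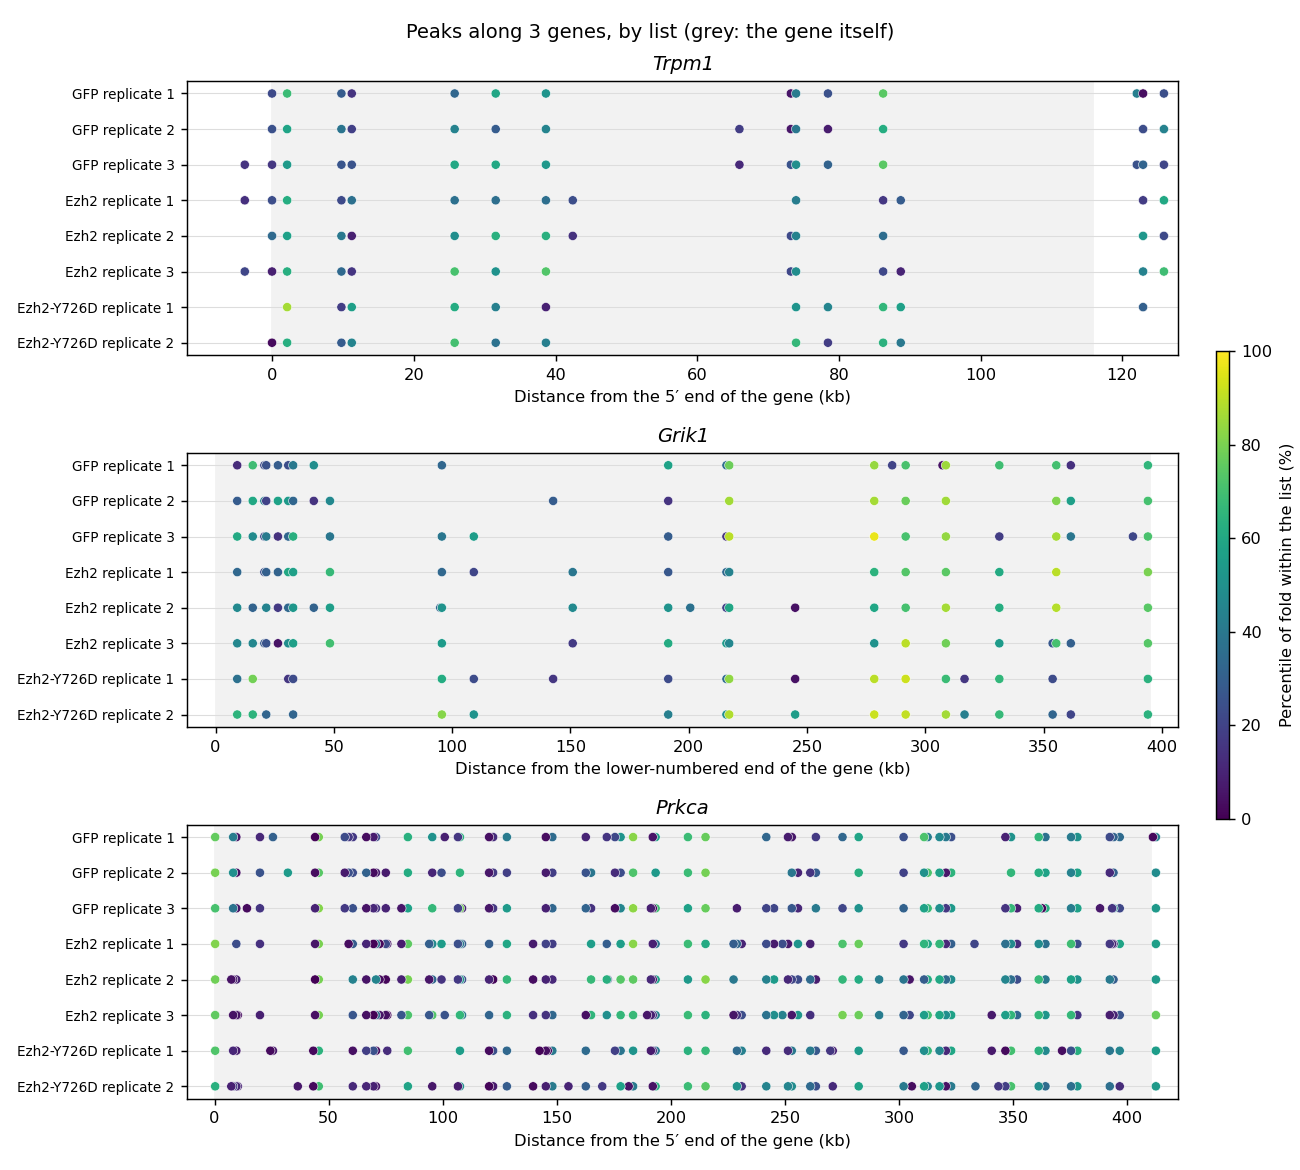
Each row is 1 list and each point a region with a peak in that list, placed by its distance in kb from the 5′ end of *Trpm1* and *Prkca* or the lower-numbered end of *Grik1*, and coloured by percentile of fold. The gap in the 3 Ezh2 rows of *Trpm1* at 78.5 kb is the region described as absent from those lists. In the 2 Ezh2-Y726D rows of *Grik1*, the region absent at 355 kb leaves no clear gap, because points of the neighbouring region lie beside it.

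The graded comparison used the regions with a peak in all 8 lists, 60 of the 176 and 69493 of all. Within each list, the percentiles of these regions were ranked again among themselves and turned into normal scores. A score of 0 is the median of these regions in that list, with 1 unit per SD. Group means were compared in 1 limma fit over all these regions and samples. The p-values were adjusted over all of them by Benjamini-Hochberg. The median of the mean percentile was 51.6 for the 60 bipolar gene regions and 67.3 for all regions. Of the 60, 11 were called in at least 1 comparison: 6 in *Prkca*, 3 in *Grik1*, 1 in *Trpm1* and 1 before *Grm6*.

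Between Ezh2 and GFP, 3 of 60 regions were called, all lower in Ezh2 (5.00%, against 4.44% of all regions, of which 1.59% were higher and 2.84% lower). Ranked by −log10 p, 2 were higher, both in *Prkca*, and 3 lower. The 3 called by fold lay deep inside *Trpm1* and *Grik1*. At chr7:64239593-64240576, 86.2 kb into *Trpm1*, percentiles were 74.6, 62.1 and 74.3 in GFP and 16.4, 35.2 and 21.5 in Ezh2. The Ezh2 lists were all below the GFP lists, and the score fell by 1.42 ± 0.190 (SE; limma adjusted p = 0.00774). In Ezh2-Y726D the values were 65.8 and 64.0, inside the range of GFP (adjusted p = 0.520), and Ezh2 was lower than Ezh2-Y726D by a score difference of -1.17 ± 0.213 (adjusted p = 0.00685, and 0.0556 without Ezh2-Y726D replicate 1).

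The pair of called *Grik1* regions lay 217 and 278 kb from its lower-numbered end. At chr16:88112563-88113434 percentiles were 77.6, 86.1 and 89.5 in GFP, 44.4, 59.0 and 46.3 in Ezh2, with 83.3 and 87.9 in Ezh2-Y726D. The score fell by 1.28 ± 0.197 from GFP to Ezh2 (limma adjusted p = 0.0112). Ezh2 differed from Ezh2-Y726D by -1.28 ± 0.220 (adjusted p = 0.00544). At chr16:88173872-88174726 percentiles were 84.3, 86.6 and 96.7 in GFP, 64.1, 59.0 and 50.6 in Ezh2, with 89.8 and 91.8 in Ezh2-Y726D. The score fell by 1.38 ± 0.245 (adjusted p = 0.0175, and 0.0533 without Ezh2 replicate 3), and Ezh2 differed from Ezh2-Y726D by -1.36 ± 0.274 (adjusted p = 0.0106, and 0.0604 or 0.0724 without Ezh2-Y726D replicate 1 or 2).

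The folds at these 3 regions show the size of the change. In *Trpm1* they were 6.58, 5.89 and 6.55 in GFP, 3.44, 4.12 and 3.44 in Ezh2, with 6.23 and 6.04 in Ezh2-Y726D. At the first *Grik1* region they were 6.85, 8.76 and 8.90, then 4.64, 5.31 and 4.36, then 8.37 and 9.06. At the second they were 7.79, 8.88 and 11.5, then 5.86, 5.31 and 4.58, then 9.74 and 10.0. In each, the highest Ezh2 fold was below the lowest fold of the other 5 lists. The strongest *Grik1* region by its mean over all lists, chr16:88204155-88204965, did not follow them, with 85.4, 85.6 and 83.7 in GFP, 74.5, 86.4 and 78.4 in Ezh2, with 68.1 and 86.3 in Ezh2-Y726D, and adjusted p from 0.435 to 0.826.

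Between Ezh2-Y726D and GFP, 1 of 60 regions was called (1.67%, against 8.21% of all regions, of which 3.55% were higher and 4.65% lower). It lay at chr11:108160164-108160673, 183 kb into *Prkca*. Percentiles were 82.2, 71.9 and 83.1 in GFP, 82.1, 75.0 and 67.2 in Ezh2, with 51.8 and 40.7 in Ezh2-Y726D, below all 6 others. The score fell by 1.13 ± 0.236 (limma adjusted p = 0.0199), and the call, the only one, was lost without either Ezh2-Y726D replicate or without GFP replicate 1 or 3 (highest adjusted p = 0.132). On the log2 of the deposited fold 2 regions were higher and 1 lower, and ranked by −log10 p 0 were higher and 7 lower. Over all regions the share of calls that were higher moved likewise, from 43.3% to 66.9% and 29.7%.

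Between Ezh2 and Ezh2-Y726D, 11 of 60 regions were called, 18.3% against 14.0% of all regions. Higher in Ezh2 were 7 (7.0% of all regions) and lower were 4 (6.96%). Without Ezh2-Y726D replicate 1 the count fell to 2, without replicate 2 to 4, and without Ezh2 replicate 1 or 2 to 7. All 6 called *Prkca* regions were higher in Ezh2. At chr11:108272612-108273632, 70.8 kb into the gene, percentiles were 36.1, 45.3 and 34.1 in Ezh2, 22.7, 7.36 and 15.0 in GFP, and 2.34 and 5.59 in Ezh2-Y726D. The difference of Ezh2 from Ezh2-Y726D was 1.28 ± 0.218 (limma adjusted p = 0.00520, and 0.0528 without Ezh2-Y726D replicate 1). Ezh2 lists were the highest and Ezh2-Y726D lists the lowest, and neither group differed from GFP past the threshold (0.0693 and 0.142), although both did when ranked by −log10 p (0.0187 and 0.0456).

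The next *Prkca* regions had the same order of group means. At chr11:107968067-107968846 percentiles were 68.8, 57.4 and 66.6 in Ezh2, 41.1, 44.2 and 42.1 in GFP, and 24.9 and 36.2 in Ezh2-Y726D (difference of Ezh2 from Ezh2-Y726D 0.97 ± 0.199, limma adjusted p = 0.0113, and 0.0971 without Ezh2-Y726D replicate 1). At chr11:108222521-108224550 they were 29.5, 10.0 and 32.3, then 4.29, 6.03 and 5.96, then 2.98 and 1.26 (difference 1.09 ± 0.248, adjusted p = 0.0178, with the call lost in 4 of 13 alternatives, the highest adjusted p being 0.139). At chr11:108160164-108160673, described above, the difference was 0.93 ± 0.236 (adjusted p = 0.0288, lost in 6 of 14 alternatives). The last 2 of the 6 regions had differences of 0.92 and 0.84 (adjusted p = 0.0294 and 0.0287), and both calls were lost without Ezh2 replicate 1 or 2, without either Ezh2-Y726D replicate and with the replicate block by peak names. Apart from chr11:108160164-108160673, where the mean of GFP was the highest, GFP means lay between those of Ezh2 and Ezh2-Y726D. With all samples, none of the 30 tested *Prkca* regions was called lower in Ezh2 by fold rank. The region chr11:108195348-108196286 was called lower when ranked by −log10 p (-1.03, limma adjusted p = 0.0237) and on the log2 of the fold (-0.38, adjusted p = 0.0409). By fold rank without Ezh2 replicate 2, chr11:107965323-107966061 was called lower in Ezh2 than in Ezh2-Y726D (-1.08, limma adjusted p = 0.0186) and than in GFP (-1.03, adjusted p = 0.0346).

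A further region higher in Ezh2 lay in *Grik1*, chr16:87928342-87929043, at 56.3, 53.0 and 56.4 in Ezh2, 40.6, 32.5 and 63.0 in GFP, and 22.9 and 32.4 in Ezh2-Y726D. Its difference of 0.76 ± 0.221 was barely called (limma adjusted p = 0.0474) and was lost in 10 of 13 alternatives. Lower in Ezh2 were the *Trpm1* region and both *Grik1* regions described above, and the region at the *Zfp879* start before *Grm6* (-0.68 ± 0.174, adjusted p = 0.0295, lost in 7 of 14 alternatives). Ranked by −log10 p, 11 regions were higher and 4 lower, and on the log2 of the fold 4 were higher and 8 lower. Over all regions the share of calls that were higher went from 50.1% to 59.7% and 28.7%. In *Grik1*, regions thus differed in both directions between the same 2 groups.

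**Figure D4:**
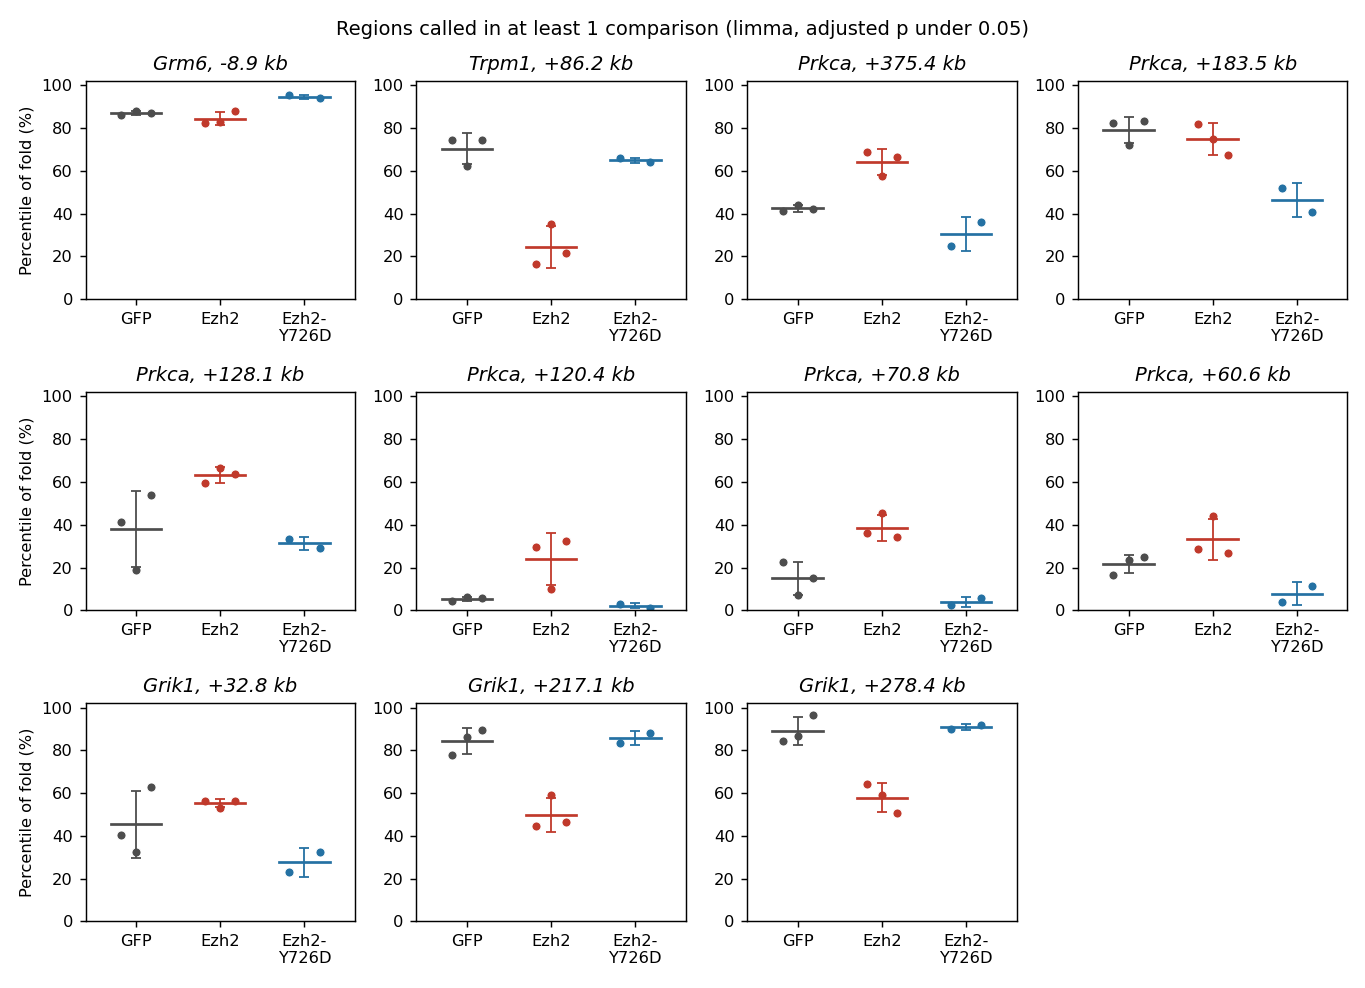
Each panel is 1 of the 11 regions called in at least 1 comparison, titled by its gene and its distance in kb from the 5′ end of the gene (for *Grik1*, the lower-numbered end), and each point is the percentile of fold in 1 list with the group mean (line) and SD (bars). Ezh2 is the lowest group at *Trpm1* 86.2 kb and *Grik1* 217 and 278 kb, and Ezh2-Y726D is the lowest group in all 6 *Prkca* panels.

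**Figure D5:**
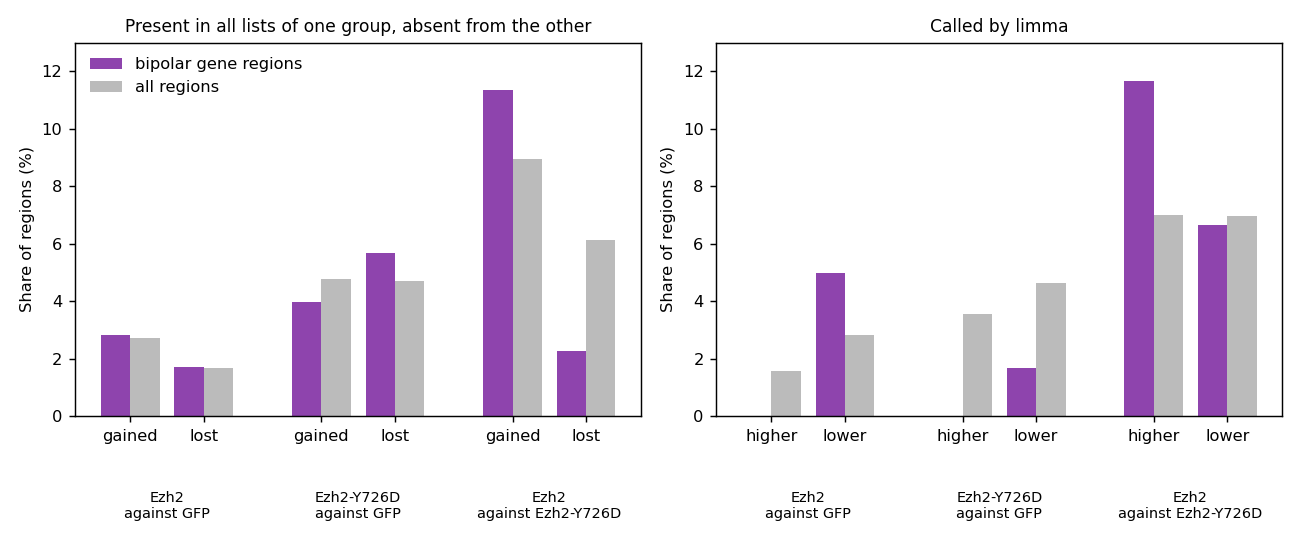
Purple bars give the share of bipolar gene regions and grey bars that of all regions in the series, for regions present in all lists of one group and absent from the other (left, 176 and 189914 regions) and for regions called by limma (right, 60 and 69493 regions). The purple bars lie on both sides of the grey ones, with 11.4% against 8.96% gained and 2.27% against 6.14% lost between Ezh2 and Ezh2-Y726D.

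Other genes of bipolar cells, in 4 lists, gave 278 tested regions outside the 8 genes. Between Ezh2 and GFP, 2 were higher and 7 lower in Ezh2 (1.43% to 5.88% of a list, against 4.44% of all regions). In Ezh2-Y726D, 15 were higher and 9 lower than in GFP (2.82% to 16.2% of a list, against 8.21%), and between Ezh2 and Ezh2-Y726D, 19 were higher and 18 lower in Ezh2. By list, the called share in the last comparison was 10.1% of 69 regions for ON bipolar signalling, 10.0% of 70 for OFF and cone bipolar genes, 12.7% of 71 for transcription factors and 20.6% of 68 for other bipolar markers, against 14.0% of all regions. The 9 calls between Ezh2 and GFP fell to between 1 and 4 without any 1 of the 8 libraries, the 24 between Ezh2-Y726D and GFP to 5 and 9 without Ezh2-Y726D replicates 1 and 2 and to 13 and 9 without GFP replicates 1 and 2, and the 37 to 8 and 17 without the Ezh2-Y726D replicates and to 18 and 22 without Ezh2 replicates 1 and 3.

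Among ON pathway genes, *Gpr179*, an orphan receptor gene, had a region at chr11:97338290-97339324 with 42.7, 25.3 and 49.9 in GFP, 6.88, 15.3 and 2.58 in Ezh2, with 46.5 and 44.8 in Ezh2-Y726D. All Ezh2 lists were the lowest (difference from GFP -1.13 ± 0.22, limma adjusted p = 0.0239). *Nyx*, which encodes nyctalopin, had a region at chrX:13502375-13503444 that was highest in Ezh2-Y726D, at 92.1 and 87.5, against 51.0, 71.4 and 54.2 in GFP and 29.1, 49.4 and 52.6 in Ezh2 (Ezh2-Y726D minus GFP 1.24 ± 0.27, adjusted p = 0.0238). *Rgs7*, a regulator of the G protein that mGluR6 activates, had regions that moved in opposite directions in Ezh2-Y726D, at chr1:175175051-175176002 (1.25, adjusted p = 0.0349) and chr1:175272665-175273544 (-1.38, adjusted p = 0.0133). For *Gnao1*, which encodes that G protein's alpha subunit, 1 region at chr8:93932621-93933640 was higher in Ezh2 than in Ezh2-Y726D (0.67, adjusted p = 0.0344).

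Among OFF and cone bipolar genes, *Scgn*, a calcium-binding protein, had a region at chr13:23982045-23982889 that stood out in Ezh2-Y726D. Its percentiles were 3.88, 6.48 and 15.6 in GFP, 4.73, 6.21 and 34.4 in Ezh2, with 72.0 and 73.5 in Ezh2-Y726D. Both Ezh2-Y726D lists were above all others (2.05 ± 0.30 over GFP, limma adjusted p = 0.00566). The AMPA receptor gene *Gria1* had a region lower in Ezh2 than in GFP, chr11:57112368-57113405 (-0.67, adjusted p = 0.0477), and *Kcng4*, a potassium channel subunit, a region lower in Ezh2-Y726D than in GFP, chr8:119635130-119636191 (-1.10, adjusted p = 0.0203). *Erbb4*, a neuregulin receptor, had a region lower in Ezh2-Y726D than in GFP at chr1:68047074-68047579 (-1.48, adjusted p = 0.0487).

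Among transcription factors, 3 regions of *Nfia* were lower in Ezh2 than in GFP, by score differences of -0.97 to -1.01. At chr4:97995996-97997730 the percentiles were 80.4, 69.7 and 70.5 in GFP, 33.5, 39.9 and 54.5 in Ezh2, with 80.1 and 68.9 in Ezh2-Y726D (-1.01 ± 0.21, limma adjusted p = 0.0305). *Lhx4* had a region higher in Ezh2-Y726D than in GFP at chr1:155711114-155712607 (0.78, adjusted p = 0.0369). *Isl1* had a region at chr13:116293413-116294281 that was higher in Ezh2 than in Ezh2-Y726D (0.68, adjusted p = 0.0296) and *Prdm1* one that was lower at chr10:44492826-44493979 (-0.93, adjusted p = 0.0212).

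Of the other markers, *Cacna2d3*, a calcium channel subunit gene with 96 regions, gave 16 calls summed over the 3 comparisons, in both directions. At chr14:29080589-29081253 percentiles were 80.8, 80.9 and 92.5 in GFP, 92.4, 89.5 and 90.3 in Ezh2, with 30.3 and 20.6 in Ezh2-Y726D, the largest fall among the regions named here (-1.99 ± 0.22 from GFP, limma adjusted p = 0.00237). At chr14:29648454-29649528 they were 85.4, 84.7 and 87.3 in GFP, 49.2, 59.0 and 46.3 in Ezh2, with 89.4 and 87.3 in Ezh2-Y726D (Ezh2 minus GFP -1.29 ± 0.17, adjusted p = 0.00718). The first was lowest in Ezh2-Y726D and the second lowest in Ezh2. *Frmd3* had 2 regions lower in Ezh2-Y726D than in GFP, *Gabrr2*, a GABA receptor gene, 1 region higher, and *Strip2* 2 regions that differed between Ezh2 and Ezh2-Y726D in opposite directions.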

How the data were processed

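ATAC-Seq peak lists of 8 samples were used, 1 list per sample, with no replicates pooled. Per the labels and the submitters' processing notes, the authors used cutadapt, Bowtie2, SAMtools, Picard, MACS2 and deepTools on GRCm38, and their versions are not given in the sources used here. Each deposited list gives for every peak a fold over local background (a linear ratio), a −log10 p and a −log10 q, a display score (not used) and a summit. The lists hold no read numbers, so depth is unknown, and a peak's fold also depends on the depth and background of its library.

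Peaks of all lists sharing at least 1 bp were merged. Genes came from RefSeq (GRCm38.p6), with 10 kb on either side. Per region and list the strongest peak was kept and its fold ranked within the list. For limma, regions were ranked again among the regions tested, and that rank was turned into a normal score. Regions with a peak in all 8 lists entered limma 3.58.1 (R 4.3.3; lmFit and eBayes, all 8 samples, no covariates, called at adjusted p under 0.05). Peak numbers were compared by an exact two-sided permutation test (Python 3.11.15, scipy 1.17.1). The study gives no design for a test between ATAC-Seq groups. The scripts were tested on simulated data. The genes and lists were chosen with earlier results of these data known.

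Named were, per gene, the strongest region present in all lists, regions over its starts or gene end, and regions gained, lost or called. Where a gene had more than 4 of a kind, the 4 with the largest difference of mean percentile or, for presence, the highest percentiles were named. The regions at gene ends and the neighbouring *Grik1* region were chosen after their values were seen. Of each other list, up to 4 genes with the most calls were named, ties going to genes with more regions. Alternatives were ranking by −log10 p, log2 of the deposited fold, only peaks with −log10 q of at least 5, lists cut to an equal length of 112939 peaks, a cover of at least 0.5 of the region, regions in at least 5 lists, the gene without flanks or with 50 kb, a replicate block and leaving out each sample.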

Additional observations from a re-analysis of the deposited data

How the results depend on the processing

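Region calls rest on 2 or 3 lists per group and on ranks, and without read numbers a missing peak cannot be told from one just under the caller's threshold. Where a count moved, the cause was not tested. Regions gained or lost came to 10 to 14 for Ezh2 and 22 to 31 for Ezh2-Y726D relative to GFP and to 28 to 38 between the 2 forms when 1 replicate was left out, which relaxes the rule, and with −log10 q of at least 5 those between Ezh2-Y726D and GFP came to 11. Genes with non-overlapping peak numbers between Ezh2 and GFP were 0 with −log10 q of at least 5, 0 with equal length lists and 2 with 50 kb flanks. Between Ezh2-Y726D and GFP they were 2 with equal length lists, 3 with 50 kb and 1 to 3 with a replicate left out, and between Ezh2 and Ezh2-Y726D 4 with 50 kb and 2 to 4 with a replicate left out. The *Prkca* difference between Ezh2-Y726D and GFP reversed from 2.00 to -4.33 peaks with equal length lists.

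Limma calls at the 8 genes between Ezh2 and GFP were 5 when ranked by −log10 p, 5 for regions in at least 5 lists and 2 to 5 with a replicate left out. Between Ezh2-Y726D and GFP they were 7, 2 and 0 to 2, and 3 on the log2 of the fold. Between Ezh2 and Ezh2-Y726D they were 2 to 11 with a replicate left out. For the other bipolar lists, calls between Ezh2 and GFP were 4 in at least 5 lists and 1 to 4 with a replicate left out. In Ezh2-Y726D against GFP they were 46 ranked by −log10 p, 12 with −log10 q of at least 5 and 5 to 24 with a replicate left out, and between Ezh2 and Ezh2-Y726D 22 and 8 to 38 under the latter 2. Ranked by −log10 p, the mean percentile of the strongest peak was 86.6 at *Trpm1*, 93.3 at *Prkca*, 49.3 at *Otx2* and 82.8 at *Grik1*, and it was 37.4 at *Grm6* without starts of other genes, where *Pcp2* gave no value in every list.

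Replicate numbers differ between the sample titles and the peak names of Ezh2-Y726D. Deviations of same-numbered samples correlated at -0.0151 to 0.0478 by title and 0.0018 to 0.0478 by peak name. These are deviations from means of 2 or 3 samples, so they cannot tell whether same-numbered samples share more than a number. With a replicate block by title, calls at the 8 genes were 3 for Ezh2 and 1 for Ezh2-Y726D relative to GFP and 8 between the 2 forms, and by peak name 3, 0 and 5 in that order. For the other lists the block by title gave 4, 19 and 28 and by peak name 4, 14 and 20.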

Other observations

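Regions missing from a single list were not in the graded comparison, and some of them, chosen after their values were seen, differed widely. At chr11:50842380-50843204, before *Grm6*, percentiles were 5.48, 6.77 and 9.42 in GFP, 30.2, 45.4 and 52.1 in Ezh2, and 6.36 in Ezh2-Y726D replicate 2, with no peak in replicate 1. All Ezh2 lists were above all others. In the limma fit over regions with a peak in at least 5 lists, Ezh2 was higher than GFP by 1.24 (adjusted p = 0.0281) and higher than Ezh2-Y726D by 1.32 (adjusted p = 0.0198). At chr11:108335401-108336054 in *Prkca*, percentiles were 42.1, 49.6 and 38.1 in GFP, 6.76 and 4.97 in Ezh2 replicates 2 and 3, and 10.6 and 18.1 in Ezh2-Y726D. GFP was the highest group there, and the score was lower in Ezh2 (-1.38, adjusted p = 0.0264) and in Ezh2-Y726D (-0.92, adjusted p = 0.0404). The same fit called further *Prkca* regions between Ezh2 and Ezh2-Y726D, in opposite directions. Lower in Ezh2 was chr11:108274007-108274422 (-1.53, limma adjusted p = 0.0135), and higher was chr11:107996867-107997609 (1.27, adjusted p = 0.028).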
